A study of Caenorhabditis elegans with 19 samples.

Results

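The sites described here are those that LIN-14 occupied on the X chromosome of Caenorhabditis elegans close to the starts of protein-coding transcripts. A site was a member when the authors' annotation placed it on chromosome X, in the promoter class within 1 kb of a transcript start, and assigned it to a protein-coding RefSeq transcript. By this rule 385 of 8333 peaks of the second larval stage (L2), 2264 of 37018 peaks of the first larval stage (L1) and 817 of the 14675 sites listed in the comparison of the stages were members. The same class held 2771 L2 peaks, 13346 L1 peaks and 5157 compared sites on the autosomes. The members were assigned to 351 genes in L2, 1598 genes in L1 and 711 genes in the comparison, and to 1611 genes in all. A RefSeq gene table placed 385 of the 385 L2 members, 2262 of the 2264 L1 members and 816 of the 817 compared members on X, and the remaining 3 did not match by symbol or identifier.

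LIN-14 is a nuclear DNA-binding protein of the heterochronic pathway, the set of genes that orders the stage-specific events of larval life. It is abundant after hatching and is turned down by the microRNA lin-4 as larvae pass into the next stage. In worms the X chromosome is the sex chromosome, and a condensin-based dosage compensation complex binds it along its length in hermaphrodites and reduces its transcription. The lin-14 gene itself lies on X, as do the genes of the signal by which an embryo counts its X chromosomes.

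Whole larvae with the genotype lin14(cc2841[lin-14::gfp]), in which LIN-14 carries GFP at its C terminus, were used for ChIP-seq, which sequences the DNA that is pulled down with a protein. The L2 group had been on food for 21 ± 1 hours (5 ChIP and 4 input libraries) and the L1 group for 8 ± 1 hours (5 ChIP and 4 input libraries), with about 600000 animals per replicate. All of these groups carried the tag, and 1 ChIP library of untagged N2 L1 larvae was not used here, so sites that are pulled down without the tag are not removed. Separate cultures for the replicates are not stated in the labels, and p-values speak of the spread among libraries only, and part of that spread may be technical. Chromatin came from whole animals, so occupancy in few cells and weaker occupancy in many cells cannot be told apart.

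The members were compared with the same class on the 5 autosomes, because X is 1 chromosome of 6 and neither sites nor genes are replicates of a chromosome. No test was made of X against the autosomes. Each X value is set beside the pooled autosomes and the range over the 5 autosomes, and shares carry 95% Wilson intervals that cover counting error only. Peak lists have 1 value per stage from merged libraries, so fold enrichments carry no replicate error and the depth per library is unknown.

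The first question was how many X genes had LIN-14 near a start. In L2, 351 of 2730 coding genes on X had a proximal promoter peak, or 12.9% (11.7 to 14.2), against 14.3% of autosomal coding genes and 14.1% of all coding genes. Every autosome was higher in L2, from 13.0% on chromosome III to 15.8% on chromosome V, although the X interval overlapped those of all autosomes but chromosome V. In L1, 58.4% of X coding genes (56.6 to 60.3) had such a peak, against 54.1% on the autosomes and 54.7% of all coding genes. The X share in L1 was close to that of chromosome II, the highest autosome, at 58.2%, while chromosome IV had 47.9%. Within 1 kb X was therefore at the top of the 6 chromosomes in L1 and at the bottom in L2. Both orders depended on the peaks counted. Within 3 kb the L2 share was 23.6% of X genes and 22.3% of autosomal genes, which turns the order round, and the L1 share was 75.1% and 65.8%. With L1 peaks of a fold enrichment of 2 or more only, within 1 kb, the share was 16.4% of X genes and 16.9% of autosomal genes.

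**Figure D1:**
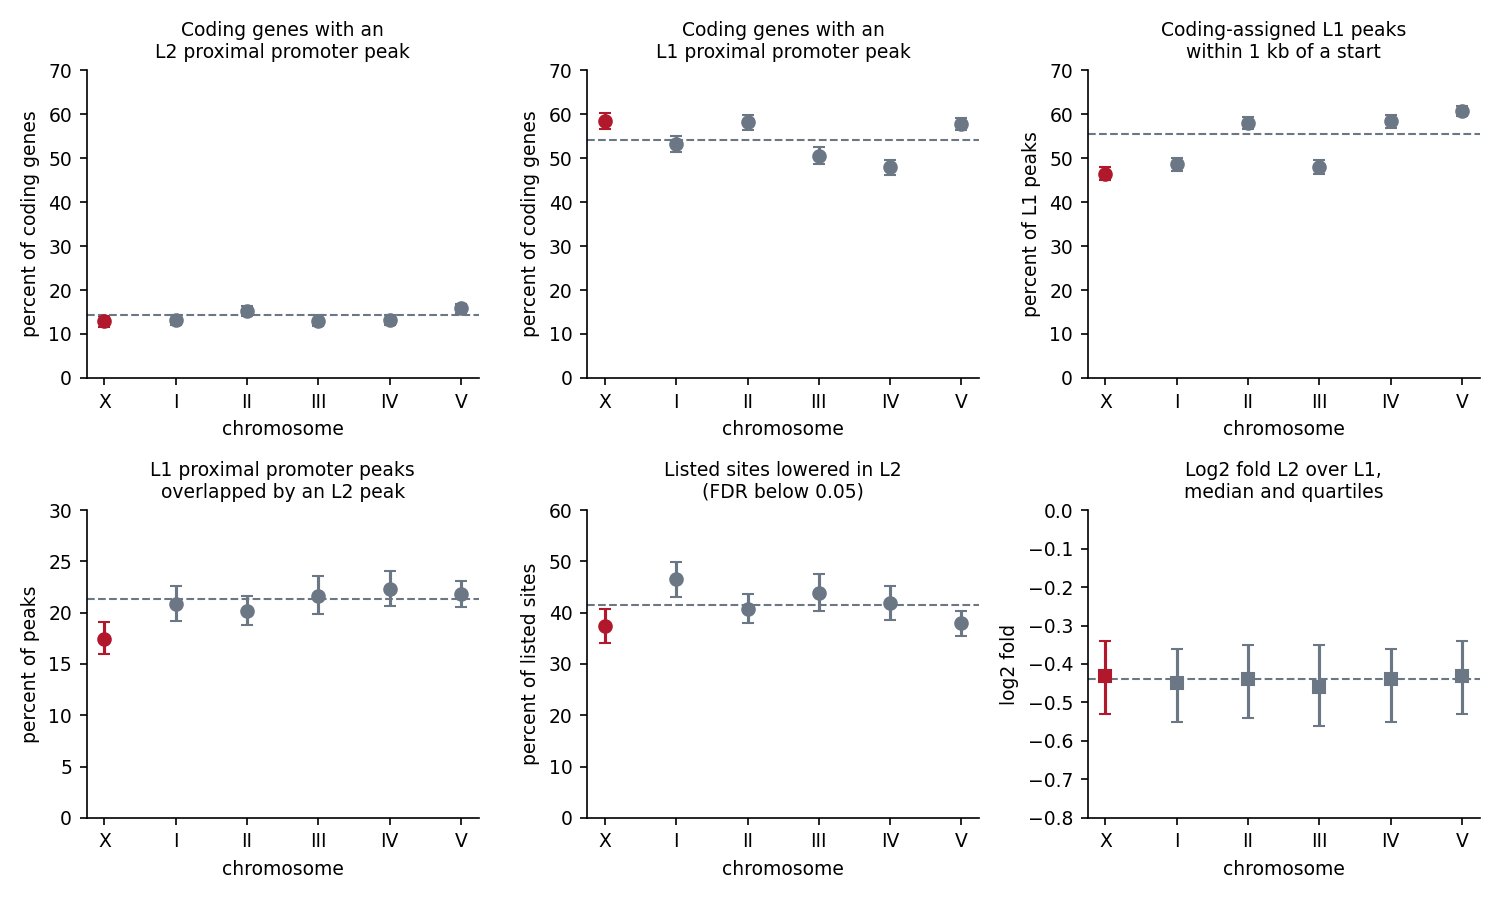
X chromosome (red) and each autosome (grey) for 6 quantities of proximal promoter sites; points are percentages with 95% Wilson intervals, except the last panel, which gives median log2 fold L2 over L1 with quartiles, and dashed lines are the pooled autosomes. X lies at 17.4% in the panel of L1 peaks overlapped by L2, below the 20.2 to 22.3% of the autosomes, while its median log2 fold of -0.43 lies among theirs.

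The proximal class took a smaller part of the peaks on X than on the pooled autosomes, but not than on every autosome. Among L2 peaks assigned to coding transcripts, 39.1% (36.1 to 42.2) on X lay within 1 kb of a start, against 49.6% on the autosomes. The L2 range was 40.8% on chromosome I to 57.3% on chromosome V. Among such L1 peaks, 46.5% (45.1 to 47.9) on X lay within 1 kb, against 55.4% on the autosomes, where the range was 48.0% on chromosome III to 60.8% on chromosome V. In both stages the interval for X overlapped those of chromosomes I and III. Of compared sites assigned to coding transcripts, 44.84% on X and 52.8% on the autosomes were in the class. Chromosomes I, with 44.76%, and III, with 44.34%, were below X there. More of the X peaks fell into the class 2 to 3 kb from a start, with 17.4% against 12.3% on the autosomes in L2 and 13.96% against 10.3% in L1. Exons other than those in the promoter windows took 8.70% of X peaks and 6.52% of autosomal peaks in L1. The transcripts at X members in L1 were also longer, with a median genomic length of 2425.5 bp against 1860.5 bp on the autosomes. The part of transcript length in these shares was not tested.

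The class counts both sides of a transcript start, and most members lay downstream of it. In L2, 65.7% of X members lay downstream, 14.5% covered the start and 19.7% lay upstream. In L1, 56.2% lay downstream, 19.7% covered the start and 24.1% lay upstream. Peaks that covered the start were a larger part of the X members than of the autosomal ones, with 14.5% against 9.42% in L2 and 19.7% against 16.4% in L1. In both stages the X share was above that of every autosome, the highest of which was chromosome V with 11.8% in L2 and 18.9% in L1. The X intervals, 11.4 to 18.4% in L2 and 18.1 to 21.3% in L1, overlapped those of chromosome V, among others. Compared sites followed the same order, with 20.2% over the start on X and 15.5% on the autosomes.

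**Figure D2:**
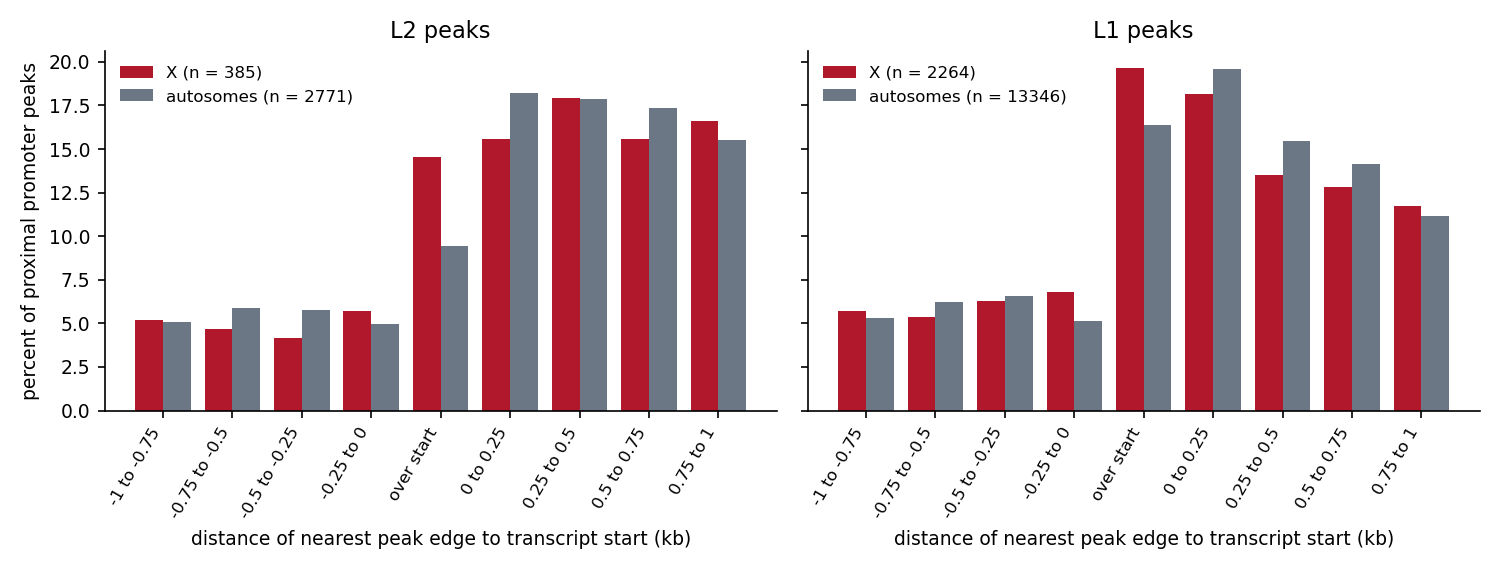
Share of proximal promoter peaks (percent) by the distance of the nearest peak edge to the transcript start in kb, negative upstream, for X (red) and autosomes (grey), in L2 (left) and L1 (right). The bars over the start reach 14.5% for X and 9.42% for autosomes in L2, and 19.7% and 16.4% in L1.

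At the 1 kb limit the rule separated neighbours of like strength. The L1 members nearest to it were peaks 999 bp upstream of arg-1 (fold enrichment 1.59) and of Y62H9A.11 (1.87), and 999 bp downstream of the start of bgnt-1.5 (1.737). Just outside it lay peaks 1002 bp downstream of dot-1.5 (1.96) and of F47B10.3 (1.83), and 1004 bp downstream of mig-15 (1.69). The limit decides on sites and not always on genes, since arg-1 and mig-15 each had another L1 peak within 1 kb.

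Most X genes with a member held a single peak. In L1, 1081 of the 1598 genes had 1 member, 413 had 2 and 83 had 3. The share with 2 or more was 32.4% on X and 32.4% on the autosomes. The genes with most members were fln-2, a filamin that cross-links actin, gap-2, a GTPase-activating protein of Ras, and rgs-7, a regulator of G protein signalling, with 8 L1 peaks each. They were followed by syg-2, an adhesion protein that places synapses, with 7 and by him-4, the extracellular matrix protein hemicentin, with 6. Their peaks were spread over alternative transcript starts, so that the members of 1 gene were not all at 1 promoter, though some starts had several. The fln-2 peaks, for example, were assigned to starts of several transcripts between positions 9405864 and 9418112, with fold enrichments of 1.49 to 2.39.

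The strength of the members was then read from the fold enrichment over control at the summit, which is the authors' peak caller's value. Median fold enrichment was 1.53 on X and 1.54 on the autosomes in L2, and 1.80 on both in L1. The upper part of the L1 distribution was thinner on X than on the pooled autosomes. A fold enrichment of 2 or more was reached by 21.2% of X members (19.5 to 22.9) and 24.3% of autosomal members. The lowest autosome was chromosome V with 22.0% (20.7 to 23.3), whose interval overlapped that of X.

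The strongest X member in both stages was a peak 125 bp upstream of D1005.6 in L2 and 86 bp upstream in L1. In L2 it spanned 1464919 to 1465527 with a fold enrichment of 1.98, and in L1 it spanned 1464880 to 1465604 with 2.92. The L2 list continued with osm-11, which encodes a secreted protein that acts with Notch ligands. Its peak at 17420650 to 17420910 had a fold enrichment of 1.91. H40L08.2 followed with 1.88, and arg-1, a Notch ligand of the DSL family, with 1.83. The next were chts-1 and F16F9.4 with 1.81 each, F41E7.2, the trehalase gene tre-4 and nssp-87 with 1.79 each, and mop-25.1, of the MO25 family of kinase scaffolds, with 1.78. All of these L2 peaks overlapped an L1 peak.

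In L1 the second strongest peak was at abu-10, a gene of the glutamine- and asparagine-rich abu family, at 3798332 to 3799680 with a fold enrichment of 2.83. H42K12.3 had 2.80 and C05E11.6 had 2.77. They were followed by nas-15, an astacin-type protease, with 2.60, B0403.3 with 2.55, and ceh-36, an Otx-type homeobox gene of chemosensory neurons, with 2.53. The tetraspanin gene tsp-20 had 2.52, the aquaporin gene aqp-8 had 2.50 and hrg-11.2 had 2.50. Of these 10 peaks, those at H42K12.3 and tsp-20 overlapped no L2 peak. The highest L1 values thus lay at genes of unlike kinds, among them a protease, an aquaporin, a tetraspanin and a transcription factor.

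The next question was whether L1 sites were still called in L2. Of the 2264 L1 members on X, 395 overlapped an L2 peak by at least 1 bp, or 17.4% (15.9 to 19.1), beside 20.9% of all L1 peaks. On the autosomes 21.4% of the same class did, with a range of 20.2% on chromosome II to 22.3% on chromosome IV. X was below each autosome, and its interval overlapped that of chromosome II narrowly. With a reciprocal overlap of 50% the shares were 11.5% on X and 13.3% on the autosomes. By gene, 21.5% of X genes with an L1 member also had an L2 member, against 25.8% of autosomal genes. L1 peaks of X outside the class showed the same order, with 19.0% overlapped against 21.6% on the autosomes.

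The overlap depended on L1 strength, and X was at or below the autosomes at each level. When the L1 peaks of the class were divided into 5 bins of like size by fold enrichment, the X share was 3.47% in the weakest bin, against 5.37% on the autosomes. It was 8.71% against 9.10% in the next, 11.9% against 14.1% in the middle bin and 20.3% against 23.3% in the bin above it. In the strongest bin, 45.9% of 414 X peaks (41.2 to 50.7) and 52.6% of 2787 autosomal peaks (50.8 to 54.5) were overlapped. The intervals of X and autosomes overlapped in the other 4 bins and stopped just short of each other in the strongest.

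**Figure D3:**
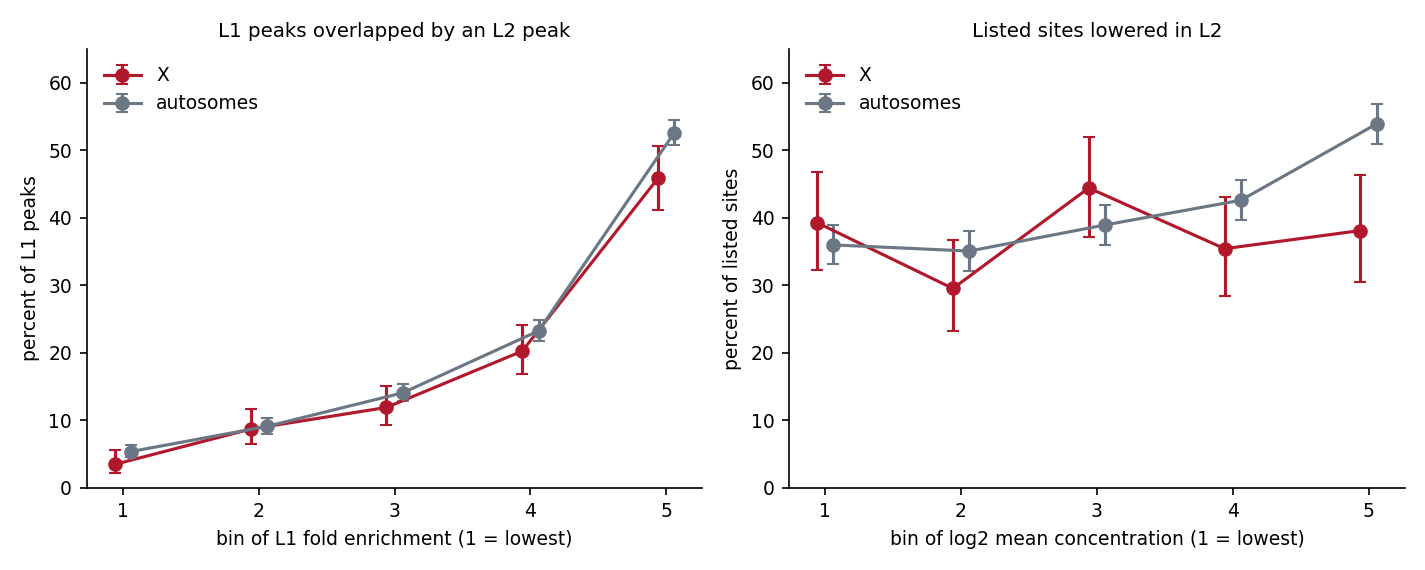
Left, percent of L1 proximal promoter peaks overlapped by an L2 peak, by bin of L1 fold enrichment; right, percent of listed sites lowered in L2, by bin of log2 mean concentration (5 bins of like size, weakest first); X in red, autosomes in grey, bars are 95% Wilson intervals. In the highest bin X lies at 45.9% against 52.6% on the left and at 38.1% against 53.9% on the right.

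In the other direction nearly every L2 member on X lay on an L1 peak. The share was 97.9% on X and 97.1% on the autosomes, which left 8 X members in L2 with no L1 peak under them. The strongest were near irk-3, an inward rectifier potassium channel, with a fold enrichment of 1.58, scav-5, of the CD36 family of scavenger receptors, with 1.56, and T07F12.1 with 1.53. None of the 8 reached the 1.78 of the tenth strongest L2 member.

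The change between the stages was taken from the authors' deposited table, which gives log2 mean concentrations (normalised reads per site) in each stage and their difference, L2 minus L1. It lists sites with a false discovery rate (FDR) of up to 0.3, so shares are of listed sites, and a site that is not listed had a higher FDR or was not tested. A site is called lowered or raised in L2 where that FDR is below 0.05. By the authors' deposited table, 305 of the 817 listed X members were lowered, or 37.3% (34.1 to 40.7), beside 41.4% of all listed sites. On the autosomes 41.5% of the class were lowered, with a range of 37.9% on chromosome V to 46.5% on chromosome I. No X member was raised, beside 0.123% of all listed sites and 2 of the 5157 autosomal sites, per the authors' deposited table. X had the lowest share of the 6 chromosomes, but it differed from chromosome V by less than the counting interval. Listed X sites outside the class showed the same order, so it was not particular to the class. Of these, 36.7% were lowered, against 43.0% on the autosomes, where the range was 40.4 to 45.1% (authors' deposited table). At an FDR below 0.01 the shares were 1.47% on X and 1.75% on the autosomes (authors' deposited table).

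Among listed sites, the size of the change on X was close to that elsewhere. The FDR limits leave out small changes on X and autosomes alike, so these medians do not describe all members. A listed site was present at 36.6% of X members in L1 and at 38.8% of autosomal ones. In the authors' deposited table, X members had a median log2 fold of -0.43, or a change of -25.8%, and -0.44 for autosomal sites of the class, which ranged from -0.46 on chromosome III to -0.43 on chromosome V. Over all listed sites it was -0.44, so single X sites are best read against that shift. Of the 305 lowered X members, 14 had a log2 fold above that median. Lowered X members had a median of -0.56, against -0.57 on the autosomes. The median standard error (SE), derived here from each deposited fold and p, was 0.20 on both, per the authors' deposited table. Of the 817 X members none was lower by a factor of 2 or more, and of the 5157 autosomal members only 4 were, too few to compare. The most negative X value was -0.91, by the authors' deposited table.

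**Figure D4:**
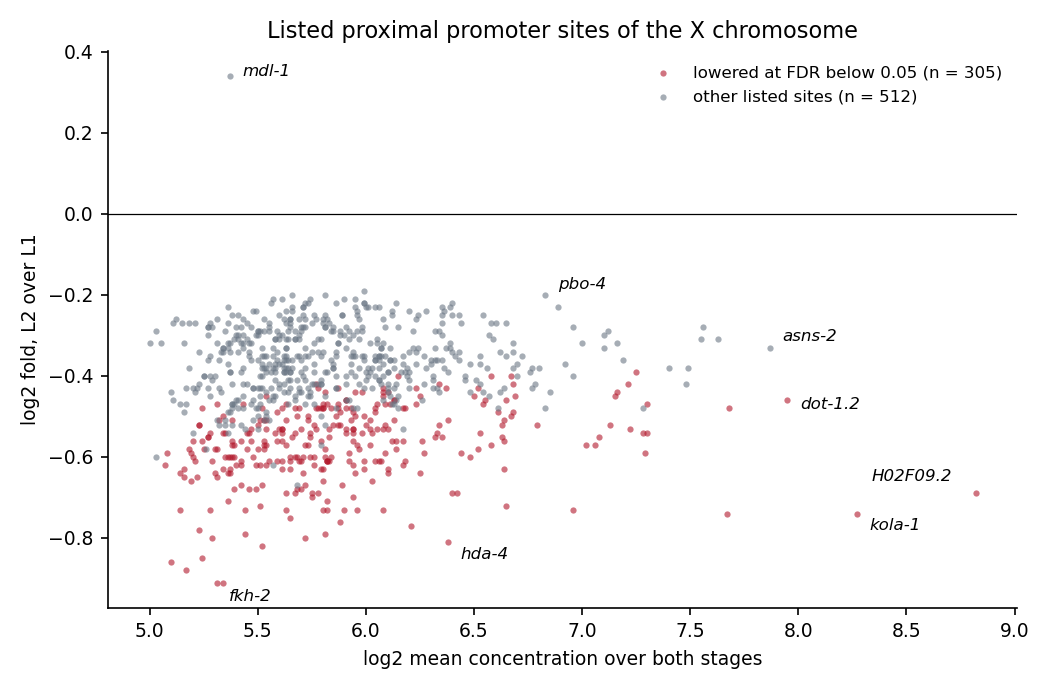
Each point is 1 of the 817 listed X members, by log2 mean concentration over both stages (horizontal) and log2 fold L2 over L1 (vertical) in the authors' deposited table; red points were lowered at an FDR below 0.05 (305), grey points were not (512). All but mdl-1, at 0.34, lie below 0, and only sites with an FDR of up to 0.3 are plotted.

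Ranked by FDR, the X members of the authors' deposited table were led by hda-4, a class II histone deacetylase. Its site at 16740666 to 16741239, 922 bp downstream of the start, had a log2 concentration of 5.93 in L2, against 6.73 in L1, a log2 fold of -0.81 ± 0.19 (SE) with an FDR of 0.00673 (authors' deposited table). The site of sft-4, a homolog of the cargo receptor SURF4, had 5.22 in L2, against 5.95 in L1, a log2 fold of -0.73 ± 0.18 (SE) with the same FDR (authors' deposited table). Both sites lay over L1 peaks, and the hda-4 site also lay over an L2 peak.

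Developmental regulators were among the next sites. The site over the start of fkh-2, a forkhead transcription factor, at 3742208 to 3742461, had 4.78 in L2, against 5.69 in L1, a log2 fold of -0.91 ± 0.22 (SE) with an FDR of 0.00749 in the authors' deposited table. The T-box gene tbx-31 had a log2 fold of -0.77 with an FDR of 0.0084, and sma-9, a zinc-finger homolog of Schnurri in the body-size pathway of BMP signalling, had -0.73 with 0.00856 (authors' deposited table). Structural genes stood beside them, as the collagen gene col-176 had a log2 fold of -0.91 ± 0.23 (SE) with an FDR of 0.00856 and the intermediate filament gene ifa-3 had -0.80 with 0.0085, per the authors' deposited table. The rest of the first 10 were F11D5.1 at -0.82, F20B6.5 at -0.86 and pqn-15, which encodes a prion-like glutamine- and asparagine-rich protein, at -0.79 (authors' deposited table). Of these 10 sites, only the hda-4 site was overlapped by an L2 peak.

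Among the lowered members, L2 peaks were scarcer than among the autosomal ones. Of lowered X members, 24.6% were overlapped by an L2 peak, against 36.5% of lowered autosomal members, where the range was 31.5 to 41.1% (FDR of the authors' deposited table). Of listed members that were not lowered, 38.1% on X and 40.5% on the autosomes were overlapped. The 305 lowered sites belonged to 295 genes, of which 86 had an L2 member and 209 had none. Of all 1598 X genes with an L1 member, 344 had an L2 member, or 21.5%.

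The sites with the highest concentration were wide, and concentration is not divided by width. H02F09.2 had the highest value, over 3120 bp from 1569718 to 1572837, with 8.44 in L2 against 9.12 in L1 and a log2 fold of -0.69 (FDR 0.0194, authors' deposited table). The site at kola-1 had 7.86 in L2 against 8.60 in L1, a log2 fold of -0.74 with an FDR of 0.017 in the authors' deposited table. Both sites lie in the stretch from 1549203 to 1572837. The sites at dot-1.2, of the DOT1 family of histone methyltransferases, with a log2 fold of -0.46, and at E01G6.1, with -0.48, were also lowered by the authors' deposited table. The site at asns-2, an asparagine synthetase gene, had a log2 fold of -0.33 with an FDR of 0.0978 and was not called (authors' deposited table).

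High concentration went with more lowered sites on the autosomes but not on X. When listed members were divided likewise into 5 bins by log2 concentration, the highest bin stood apart. In it, 53 of 139 X members were lowered, or 38.1% (30.5 to 46.4), against 53.9% of 1077 autosomal members (51.0 to 56.9), by the FDR of the authors' deposited table. Each autosome was above X there, with 50.2% on chromosome II as the lowest and 61.2% on chromosome I as the highest. The median log2 fold in this bin was -0.40 on X and -0.46 on the autosomes (authors' deposited table). The order was the other way in the lowest bin, with 39.3% of X members lowered and 36.0% of autosomal members, and in the middle bin, with 44.4% and 39.0% (authors' deposited table). Intervals of X and autosomes overlapped in all bins but the highest. The widths in the highest bin were alike, with medians of 694 bp on X and 679 bp on the autosomes. This division of the sites was not tested, and X has 1 value in each bin.

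The only listed X member with a positive log2 fold was at mdl-1, a Mad-type bHLH gene. It had 5.53 in L2 against 5.19 in L1, a log2 fold of 0.34 ± 0.30 (SE) with an FDR of 0.294, in the authors' deposited table, and it overlapped no peak of either stage. The members next nearest to 0 were C03B1.3 at -0.19 and ZK899.5, pbo-4, a sodium-proton exchanger gene, and spig-15 at -0.20 each, with FDRs of 0.266 to 0.298 (authors' deposited table). Across all site classes of X, 2 sites were raised, neither of which is a member. One lay 796 bp upstream of the microRNA gene mir-249 with a log2 fold of 0.64 and an FDR of 0.0146, per the authors' deposited table. The other lay 1870 bp upstream of tbb-4, a beta-tubulin gene, with a log2 fold of 0.68 and an FDR of 0.0162, while the member 85 bp upstream of tbb-4 had -0.39 with an FDR of 0.10 (authors' deposited table).

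The share lowered was also read by position relative to the start. By the authors' deposited table, 33.1% of X members upstream of the start were lowered, 39.4% of those over it and 38.0% of those downstream, against 38.6, 42.4 and 42.2% on the autosomes. The upstream members varied on X when taken in steps of 250 bp. From the farthest step to the nearest, 48.9, 25.0, 45.7 and 13.3% of X members were lowered, against 41.2, 36.9, 37.6 and 39.1% on the autosomes (authors' deposited table). X was thus above the autosomes in 2 of these steps and below them in the other 2, with 35 to 47 X members in each.

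Along the chromosome, members occurred in every 2 Mb window, from 153 L1 peaks in the last, shorter window to 321 between 10 and 12 Mb. In the leftmost window 28 of 70 listed members were lowered, and the share was 42.0, 44.2, 34.0, 28.8, 25.2, 42.3, 38.5 and 49.2% in the next 8 windows, by the authors' deposited table. The lowest shares therefore lay side by side between 8 and 12 Mb, where 58 of 214 members were lowered, or 27.1% (21.6 to 33.4), against 41.0% (37.1 to 44.9) of the 603 members in the rest of X (authors' deposited table). The median log2 fold was -0.39 there and -0.44 in the rest (authors' deposited table). These limits were chosen after the windows had been seen, and median log2 concentrations were alike, at 5.76 and 5.78. Autosomes also varied, since 41 windows with at least 40 listed sites ranged from 26.5 to 61.5%. Of these, 3 lay below the 28.8% of the X window from 8 to 10 Mb. None was as low as the 25.2% of the X window from 10 to 12 Mb, though the lowest came near it. On every autosome, as on X, the lowest share lay in an inner window and not at an end. The lowest windows were 6 to 8 Mb on chromosomes I (30%) and III (26.5%). They were 8 to 10 Mb on chromosomes II (27.9%) and IV (33.1%), and 12 to 14 Mb on chromosome V (26.7%). A low inner stretch was thus not particular to X.

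The members were then read by gene family, in 15 lists. X genes had an L1 member more often than autosomal genes of the same list in 11 of the 14 lists with listed X sites, and a smaller share of lowered sites in 9 of these 14. The counts below are of listed X members lowered by the authors' deposited table, and most are small. They are to be read beside the 37.3% over all X members, and counts of genes with an L1 member beside the 58.4% of all X coding genes and 54.1% of autosomal ones.

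**Figure D5:**
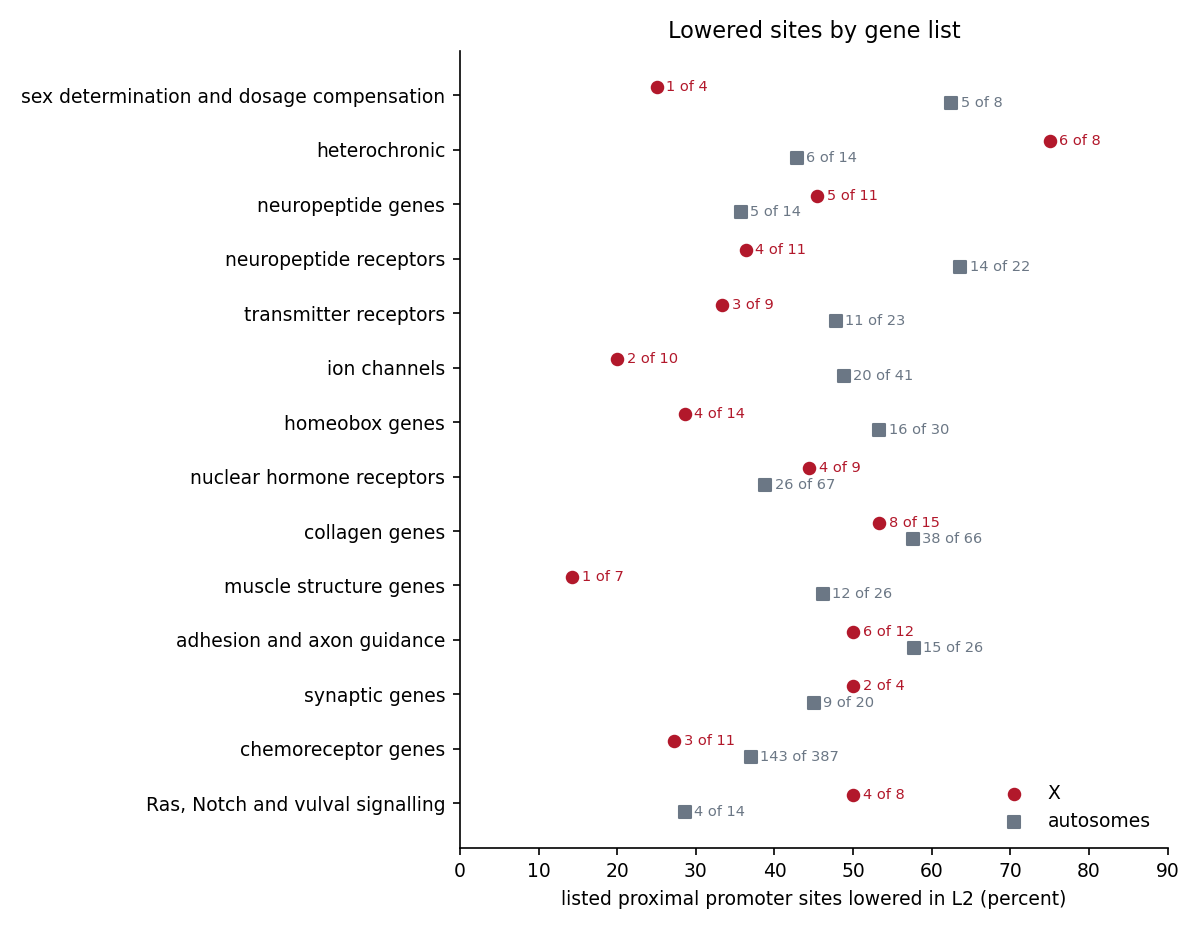
Percent of listed proximal promoter sites lowered in L2 (FDR below 0.05 in the authors' deposited table), for 14 gene lists, with X as red circles and autosomes as grey squares; numbers give lowered of listed sites. X lies at 6 of 8 sites for heterochronic genes and at 2 of 10 for ion channels, against 6 of 14 and 20 of 41 on the autosomes.

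All 6 X genes of the list of sex determination and dosage compensation had an L1 member, against 12 of 23 on the autosomes and beside 58.4% of all X coding genes. The X signal elements were sex-1, a nuclear hormone receptor gene with 4 L1 peaks of up to 2.16-fold enrichment, ceh-39, a homeobox gene with a peak of 1.741, and fox-1, an RNA-binding protein gene with a peak of 1.73. Their target xol-1, the switch gene of sexual fate, had 2 L1 peaks of up to 1.79. The genes sdc-1 and sdc-2, which act to bring the dosage compensation complex to X, had 1 peak of 1.87 and 2 peaks of up to 1.80. Of the 6 genes, sex-1 alone had an L2 member, with 1.502. Of 4 listed members, 1 was lowered, at sdc-1, with 5.49 in L2 against 6.07 in L1 and a log2 fold of -0.58 ± 0.21 (SE, FDR 0.0313, authors' deposited table). The other 3 were ceh-39 at -0.35 (FDR 0.146), sdc-2 at -0.29 (0.172) and sex-1 at -0.27 (0.223), in the authors' deposited table.

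Heterochronic genes on X were lowered at 6 of 8 listed members, against 6 of 14 on the autosomes, with a median log2 fold of -0.61 on X (authors' deposited table). The casein kinase gene kin-20 had 2 lowered sites. The stronger, at 15273155 to 15273639, had 5.55 in L2 against 6.28 in L1, a log2 fold of -0.73 ± 0.21 (SE) with an FDR of 0.0122, and the other had -0.63 with 0.0247 (authors' deposited table). Genes of the microRNA machinery were the next. The site of ain-1, a GW182 protein gene, had 6.24 in L2 against 6.96 in L1, a log2 fold of -0.72 with an FDR of 0.0183, and the Argonaute gene alg-1 had -0.61 with 0.0192 (authors' deposited table). A second ain-1 site had -0.26 with an FDR of 0.273 and was not called (authors' deposited table). The Pumilio gene puf-9 had -0.61 and myrf-2, of the myelin regulatory factor family, had -0.47, both lowered, while nhr-25, a nuclear hormone receptor gene of the molt and epidermis, had -0.52 with an FDR of 0.057 (authors' deposited table). The lin-14 gene itself had 2 L1 members of up to 2.07-fold enrichment, 1 of them 549 bp downstream of a start at 11480752 to 11480980, and hbl-1, a hunchback homolog, had 1 of 1.63. Neither lin-14 nor hbl-1 had an L2 member or a listed member in the comparison. Among the genes of this list on X, myrf-2 alone had an L2 member, with 1.48.

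Of 41 neuropeptide genes on X, 25 had an L1 member, or 61.0%, which is near the 58.4% of all X coding genes, and 5 had an L2 member, or 12.2%, near the 12.9% of all X coding genes. Of 11 listed members 5 were lowered, against 5 of 14 on the autosomes. The genes were flp-12 with a log2 fold of -0.58, nlp-61 with -0.62, nlp-7 with -0.57, nlp-45 with -0.53 and nlp-3 with -0.47, per the authors' deposited table. Of their receptor genes on X, 11 of 36 had an L2 member, or 30.6%, against 15.3% of autosomal receptor genes and beside 12.9% of all X coding genes. Of 11 listed receptor members 4 were lowered, at npr-9, egl-6, a FLP peptide receptor gene of egg laying, npr-4 and npr-28, with log2 folds of -0.59 to -0.43, against 14 of 22 on the autosomes (authors' deposited table).

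Receptors of small transmitters were lowered at 3 of 9 listed X members, against 11 of 23 on the autosomes. The strongest change was at lgc-21, a ligand-gated channel gene, with 4.67 in L2 against 5.54 in L1 and a log2 fold of -0.88 ± 0.26 (SE, FDR 0.0152, authors' deposited table). The serotonin receptor gene ser-7 had -0.67 and the glutamate receptor gene glr-7 had -0.46, and octr-1, an octopamine receptor gene, had -0.45 with an FDR of 0.0544 (authors' deposited table). Other ion channels were lowered at 2 of 10 listed members, against 20 of 41 on the autosomes. These were the potassium channel genes twk-26 with -0.62 and kqt-1 with -0.55, while clh-4, a chloride channel gene, had -0.40 with an FDR of 0.0615 and kqt-2 had -0.41 with 0.0626 (authors' deposited table). Genes of synapses and gap junctions were lowered at 2 of 4 members, against 9 of 20 on the autosomes. The 2 lay at the innexin genes unc-7 with -0.63 and inx-2 with -0.56 (authors' deposited table).

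Homeobox genes were lowered at 4 of 14 listed members on X, against 16 of 30 on the autosomes. The lowered sites were at ceh-36 with a log2 fold of -0.55, ceh-1 with -0.60, ceh-31 with -0.45 and psa-3, a Meis-type cofactor gene, with -0.48 (authors' deposited table). Nuclear hormone receptor genes were lowered at 4 of 9, against 26 of 67 on the autosomes, at nhr-45 with -0.61, nhr-281 with -0.60, nhr-137 with -0.52 and nhr-14 with -0.46 (authors' deposited table). The 2 transcription factor families thus lay on either side of the share over all X members.

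Collagen genes, which build the cuticle, had the most listed members of any list on X. Of these 15, 8 were lowered, the largest count but not the largest share of any list, against 38 of 66 on the autosomes. Besides col-176 they included col-185 with a log2 fold of -0.61 ± 0.17 (SE, FDR 0.0118), col-181 with -0.56 and dpy-7 with -0.48 (authors' deposited table). Muscle structure genes were lowered at 1 of 7, against 12 of 26 on the autosomes. That site covered the start of the actin gene act-4, with a log2 fold of -0.60 and an FDR of 0.024, while the troponin T gene tnt-3 had -0.40 with 0.0649 and pat-9, a zinc-finger gene of muscle, had -0.47 with 0.0667 (authors' deposited table). Of muscle genes on X, 7 of 16 had an L1 member, or 43.8%, beside 58.4% of all X coding genes, against 40 of 52 on the autosomes, or 76.9%, beside 54.1% of all autosomal coding genes.

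Adhesion and axon guidance genes were lowered at 6 of 12 listed members, against 15 of 26 on the autosomes. The neuroligin gene nlg-1 had 5 L1 peaks and a lowered site with a log2 fold of -0.52 (FDR 0.0187), mig-23, a nucleoside diphosphatase gene of cell migration, had -0.53, ncam-1 had -0.54 and him-4 had -0.44 (authors' deposited table). Genes of Ras, Notch and vulval signalling were lowered at 4 of 8, against 4 of 14 on the autosomes. These were sli-1, a Cbl-type inhibitor of EGF receptor signalling, with -0.85 ± 0.26 (SE, FDR 0.0174), 2 of 4 gap-2 sites, with -0.63 and -0.47, and sel-7, with -0.54 (authors' deposited table). Chemoreceptor genes are few on X, 35 against 1333 on the autosomes. They were lowered at 3 of 11 listed members, at str-124 with -0.63, str-79 with -0.51 and srd-41 with -0.43, against 143 of 387 on the autosomes (authors' deposited table). Of ribosomal protein genes X holds 1, rpl-11.2, which had an L1 peak of 1.63 and no listed member.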

How the data were processed

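ChIP and input libraries of both stages were processed by the authors with BWA, SAMtools, MACS2, DiffBind and ChIPseeker, per the submitters' processing notes. The sources used here do not give versions, the genome build, the normalization or the control libraries. The names of the deposited peaks show that each stage's libraries were merged, without outliers, before peak calling, so depth per library is unknown. Each deposited peak has a score, which follows the -log10 q-value, a fold enrichment ratio and a -log10 q-value. The authors' deposited comparison holds log2 concentrations, a log2 fold, a p-value and an FDR, per the file headers. About 16888 sites were tested, as estimated from p and FDR, and 14675 are listed.

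Members were taken by chromosome, class and transcript identifier. Peak overlap needed at least 1 bp. SEs are the absolute fold over the normal quantile of the two-sided p. Symbols came from RefSeq (WBcel235, 46926 genes), none of whose coordinates is used. Positions are 1-based, and each printed start is 1 bp above the deposited value. Named sites are the first by fold enrichment, FDR, fold or concentration, and up to 4 per gene list by FDR, but 5 for neuropeptide genes. All members of the lists of sex determination and of heterochronic genes are named. The members and lists were chosen with earlier results of these data known. Planned promoter sequences and motif searches were not analysed here. The calculations were tested on simulated data. Tools were SciPy 1.17.1, pandas 2.3.3 and NumPy 2.4.6 under Python 3.11.15, with matplotlib 3.10.9 for figures. Alternatives covered peak strength, distance, overlap, FDR and leaving out single autosomes.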

Additional observations from a re-analysis of the deposited data

How the results depend on the processing

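Differences are X minus autosomes, in percentage points for shares. Of 94 alternative values, 79 stayed close to the main value. For a share that means within the half-width of the X counting interval, for a median within the SD over the 5 autosomes, and for a count within 1.5 times. The 79 include every alternative that only reweighted or left out autosomes. Those keep the X value, so the tally says less about the choice of sites and thresholds. The difference in the share of coding genes with an L1 peak was 4.30 and turned to -0.661 with a -log10 q of 10 or more and to -0.515 with a fold enrichment of 2 or more, while it was 9.25 within 3 kb. For L2 genes it was -1.44, was -0.0388 with a -log10 q of 10 or more, and turned to 1.25 within 3 kb. The difference in L1 peaks overlapped by L2 was -3.92 and was -1.79 with a reciprocal overlap of 50%. The difference in median L2 fold enrichment was -0.00603, was -0.0114 with 1 peak per gene and was -0.0149 within 500 bp. The difference in the share lowered was -4.17 and was -0.276 at an FDR below 0.01. The number of lowered X members was 305, and 12 at an FDR below 0.01, 526 at an FDR below 0.1 and 563 within 3 kb. No X member was raised, while 1 site was with all transcript types, 1 within 3 kb, and 14 of the called sites lay above the median log2 fold. The cause of these moves was not tested, apart from fewer or more sites being counted. An alternative added after seeing the data, the share of L1 peaks that overlap a lowered site, gave a difference of -2.41 (13.96% of X members, 16.4% of autosomal ones and 16.3% of all L1 peaks). No paired analysis was possible because the peak lists and the comparison hold no value per library, and for the same reason no replicate could be left out.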
